A study of Mus musculus with 8 samples.

Results

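The 9 genes described here encode the coat of caveolae and proteins that bind nitric oxide synthases (NOS) or act on nitric oxide's products. They were chosen by name from the 15728 genes of the deposited table, and all 9 were found. They are the caveolins Cav1 and Cav2, the cavins Ptrf, Sdpr and Prkcdbp (now named Cavin1, Cavin2 and Cavin3), the NOS-binding proteins Nosip and Nostrin, the S-nitrosoglutathione reductase gene Adh5, and Vasp. The table holds cap analysis of gene expression (CAGE) of lung. In CAGE the 5′ cap of each RNA is trapped and the end next to it is sequenced, so a read marks where transcription began. The knockout lungs came from 4 mice lacking the neuronal, inducible and endothelial NOS (labelled triply n/i/eNOSs-/-, called NOS triple knockout below), and the others from 4 wild type mice. Mice of either genotype were labelled as C57BL/6J, 4 weeks old and unexposed. The sources used here do not give the deleted exons, the sex or the litter.

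Caveolae are small flask-shaped pits of the plasma membrane, abundant in endothelial cells and alveolar type 1 cells of the lung. Caveolins are inserted in the membrane, and cavins bind from the cytosol to form the outer coat. Caveolin-1 binds endothelial NOS and holds it inactive, and Nostrin and Nosip bind NOS and alter its place in the cell. Downstream, Adh5 breaks down S-nitrosoglutathione, a store of nitric oxide, and Vasp, which binds actin, is phosphorylated by the kinase that cyclic GMP activates.

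In the NOS triple knockout lungs, both caveolin transcripts were modestly higher and 1 cavin, Cavin2, was lower, while the other 6 genes did not pass the test. Cav1 averaged 816 ± 41.9 counts per 1000000 reads (CPM) in knockout and 686 ± 48.3 CPM in wild type lungs (SD, n = 4 each). Cav2 averaged 382 ± 25.8 CPM in knockout and 325 ± 14.0 CPM in wild type lungs. Cavin2 averaged 239 ± 12.7 CPM in knockout and 337 ± 15.3 CPM in wild type lungs. Of all 14065 genes tested, 30.9% were called different (16.6% higher and 14.3% lower), so 3 calls among 9 genes is close to the share of the whole table. A call is an adjusted p under 0.05 in limma, fitted across all tested genes on log2(CPM + 0.5) with Benjamini-Hochberg adjustment.

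Since CAGE reads start at the promoter, the reference windows of the 3 called genes are shown, from 250 bases before to 50 bases after each annotated start. They are RefSeq sequences of GRCm38.p6, whereas the submitters' processing notes name mm9, so they show which promoters are meant and not where reads fell. Capitals mark any match, on either strand, to the TATA box, written TATAAA, the GC box, written GGGCGG, the CCAAT box, the E-box, written CACGTG, or the CArG box. Cav1 has a pair of annotated starts, and its CPM is for the whole gene, so the starts cannot be told apart here.
Cavin2, chr1:51288876-51289175, strand +: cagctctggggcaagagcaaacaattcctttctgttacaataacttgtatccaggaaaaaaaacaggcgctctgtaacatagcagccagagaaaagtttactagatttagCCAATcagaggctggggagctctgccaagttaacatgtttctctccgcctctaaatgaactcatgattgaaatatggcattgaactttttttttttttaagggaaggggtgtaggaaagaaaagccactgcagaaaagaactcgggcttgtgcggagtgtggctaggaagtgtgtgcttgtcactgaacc
Cav2, chr6:17280935-17281234, strand +: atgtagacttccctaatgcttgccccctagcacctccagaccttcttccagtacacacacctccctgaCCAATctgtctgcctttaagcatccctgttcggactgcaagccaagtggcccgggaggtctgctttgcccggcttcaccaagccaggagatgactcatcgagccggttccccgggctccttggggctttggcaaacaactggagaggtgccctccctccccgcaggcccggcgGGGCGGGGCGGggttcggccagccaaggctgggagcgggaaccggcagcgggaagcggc
Cav1 first start, chr6:17306085-17306384, strand +: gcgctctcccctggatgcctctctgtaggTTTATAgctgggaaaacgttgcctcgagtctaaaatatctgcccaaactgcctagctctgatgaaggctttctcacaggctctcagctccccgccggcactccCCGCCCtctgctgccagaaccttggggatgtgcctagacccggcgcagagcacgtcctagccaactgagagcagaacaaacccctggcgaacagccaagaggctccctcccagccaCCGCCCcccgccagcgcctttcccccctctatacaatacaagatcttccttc
Cav1 second start, chr6:17307390-17307689, strand +: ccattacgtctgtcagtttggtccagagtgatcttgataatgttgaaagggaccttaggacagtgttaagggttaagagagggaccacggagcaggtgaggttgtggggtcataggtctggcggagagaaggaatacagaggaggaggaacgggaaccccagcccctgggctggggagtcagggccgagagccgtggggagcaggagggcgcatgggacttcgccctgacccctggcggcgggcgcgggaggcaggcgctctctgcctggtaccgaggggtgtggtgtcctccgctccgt
The Cavin2 window was the poorest in GC of these, with 43.3% G or C and 4 CpG dinucleotides. The Cav2 window had 64.3% G or C and 16 CpG, and the Cav1 windows 59.3% with 13 CpG and 62.3% with 16 CpG, against medians of 52.7% and 7 CpG over 32851 such windows. The GC box occurred at 2 overlapping positions in Cav2 and 2 positions in the first Cav1 window, and in 35.7% of all windows. The CCAAT box occurred once in Cavin2 and once in Cav2, and in 37.4% of all windows. The TATA box letters matched once, on the reverse strand, in the first Cav1 window, and in 13.6% of all windows. None of the windows shown held CACGTG or the CArG box, which 7.15% and 1.63% of all windows hold. Of the 9 genes, 8 had a window.

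The 8 libraries held 13014134 to 15096188 reads in knockout and 15598154 to 18593913 reads in wild type lungs, so all knockout libraries were shallower. For the 9 genes that gave 239 to 13987 reads per gene and library, and 9 of 9 passed the filter on low values (at least 1 CPM in at least 4 libraries). The targeted gene Nos3 had 5.56, 8.32, 8.83 and 6.76 CPM in knockout and 18.2, 22.75, 19.8 and 18.6 CPM in wild type libraries. Its log2 fold change was -1.38 with an SE of 0.137 (limma adjusted p = 4.58e-05), and reads of the genes Atg9b and Gm15587 that overlap it on the other strand could be among them, since the use of strand in counting is not given. Nos1 and Nos2 were not analysed here. The limma p-values set each difference against the spread between these 4 libraries per genotype. In that fit each gene's variance is drawn toward a trend over all genes tested.

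Cav1, the main structural protein of caveolae, was the most abundant of the 9 genes in either genotype. Its level was 806, 819, 870 and 768 CPM in the 4 knockout libraries and 689, 752, 641 and 662 CPM in the 4 wild type libraries. The lowest knockout library lay above the highest wild type library. The difference was 0.25 on the log2 scale (SE 0.0654, 95% interval 0.11 to 0.39, limma adjusted p = 0.0140), a 1.19-fold higher level. Cav2, which joins Cav1 in mixed oligomers, stood at 403, 377, 402 and 348 CPM in knockout libraries and 329, 341, 308 and 321 CPM in wild type libraries. Here too the genotypes did not overlap, as held for 31.2% of all genes tested. The difference was 0.23 on the log2 scale (SE 0.0631, 95% interval 0.09 to 0.37, limma adjusted p = 0.0170). These calls are narrow: under quantile normalization, which gives each rank of expression the same value in every library, Cav1 was at 0.18 (adjusted p = 0.0746) and Cav2 at 0.14 (adjusted p = 0.121). The Cav2 call also ended without knockout replicate 3 (adjusted p = 0.0559) or wild type replicate 3 (adjusted p = 0.0522).

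**Figure D1:**
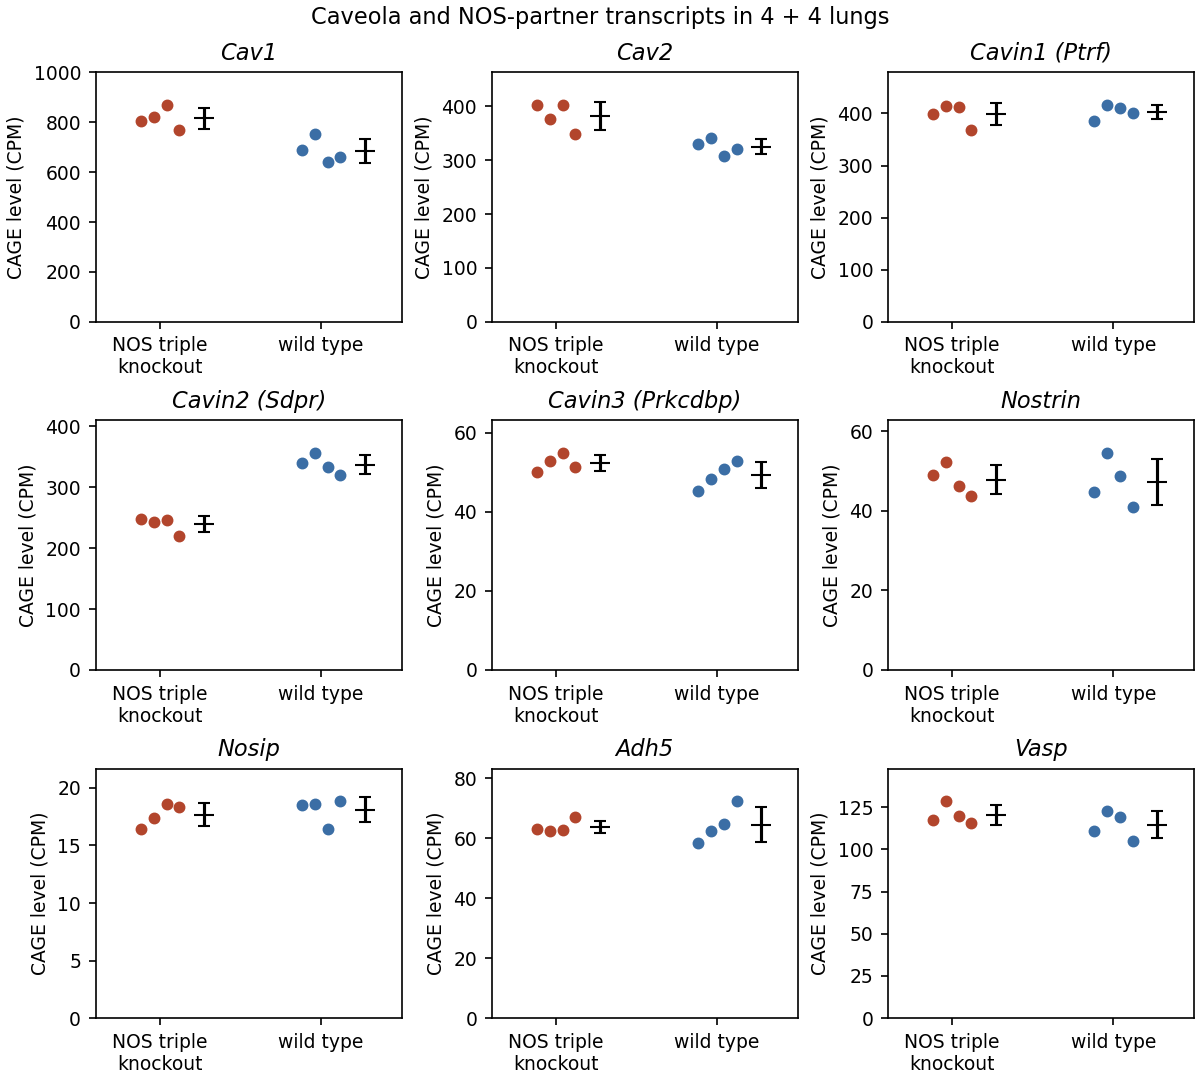
CAGE level (CPM, linear axis from 0) of each of the 9 genes in the 4 NOS triple knockout and 4 wild type lungs. Points are libraries in replicate order and bars are the mean ± SD. The genotypes part for Cav1, Cav2 and Cavin2, and overlap for the other 6 genes.

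Of the 3 cavins, 1 was called, and differences between cavins are given further on as ratios to Cav1. Cavin2, which binds phosphatidylserine and helps shape the caveolar membrane, stood at 247, 243, 246 and 220 CPM in knockout libraries and 339, 356, 332 and 319 CPM in wild type libraries. Every knockout library was far below every wild type library. Its log2 fold change was -0.49 (SE 0.0596, 95% interval -0.62 to -0.36, limma adjusted p = 0.000190), to 0.71 of the wild type level, and was called under every alternative tried. An antisense transcript, 9330175M20Rik, overlaps Cavin2, and reads of it could be counted with Cavin2 if strand was not used. The same holds for Cavin3, Vasp, Dnm3, Hopx and Des, each with an unlisted opposite-strand transcript in the annotation.

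Cavin1, without which caveolae do not form, stood at 398, 415, 412 and 368 CPM in knockout libraries and 386, 416, 410 and 401 CPM in wild type libraries. The ranges overlapped. Its difference of -0.02 had a 95% interval of -0.14 to 0.11 on the log2 scale (limma adjusted p = 0.825), which spans 0.90 to 1.08 of the wild type level. Cavin3, a protein kinase C delta binding protein that joins the coat through Cavin1, stood at 50.2, 52.9, 54.9 and 51.3 CPM in knockout libraries and 45.3, 48.35, 50.8 and 52.8 CPM in wild type libraries. Its upper wild type values lay within the knockout range (difference 0.09, 95% interval -0.06 to 0.23, limma adjusted p = 0.355).

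**Figure D2:**
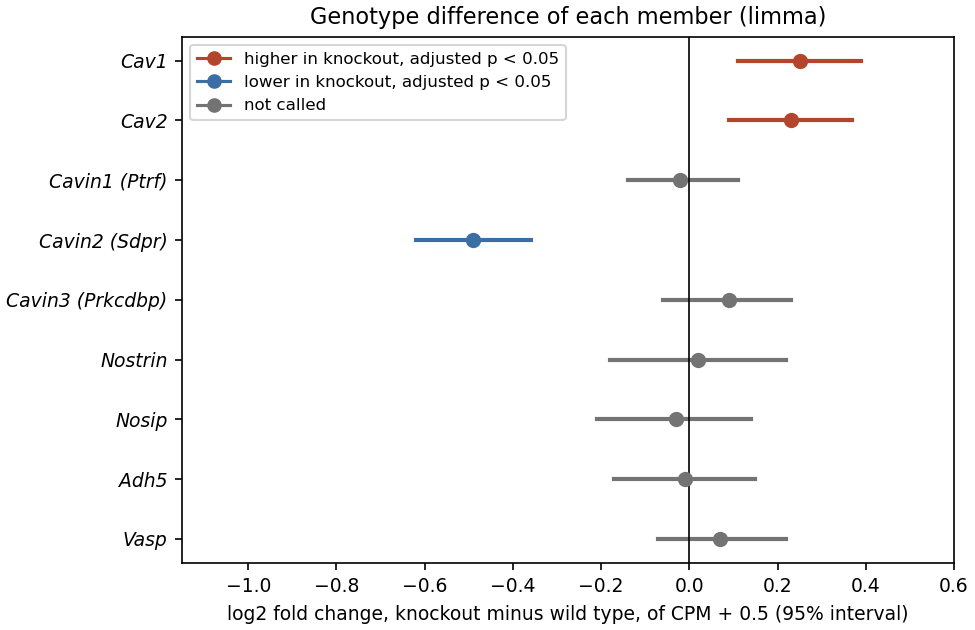
Log2 fold change, knockout minus wild type, of CPM + 0.5 for each of the 9 genes, with the 95% interval from limma. Cav1 (0.25) and Cav2 (0.23) lie above 0, Cavin2 (-0.49) below it, and the intervals of the other 6 genes cross 0.

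CAGE gives 1 read per capped end whatever the transcript length, so CPM of different genes were set side by side without dividing by length. In knockout lungs the order of mean CPM was Cav1, Cavin1, Cav2, Cavin2, Vasp, Adh5, Cavin3, Nostrin and Nosip. The neighbours Cavin1 and Cav2 (398 and 382 CPM) and Cavin3 and Nostrin (52.3 and 47.7 CPM) overlapped between libraries, and the other neighbours did not. In wild type lungs Cavin2 (337 CPM) came before Cav2 (325 CPM), with overlapping libraries, and Cavin3 and Nostrin again overlapped, while the order was otherwise as in knockout lungs. Cav1 ranked at the percentile 99.2 of all 15728 genes by mean level and Nosip at 53.3.

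Ratios within a library do not depend on how libraries are scaled. Per CPM of Cav1, Cavin2 stood at 0.307, 0.297, 0.283 and 0.287 in knockout libraries and 0.492, 0.473, 0.518 and 0.483 in wild type libraries. The mean ratio was 0.293 ± 0.0105 in knockout and 0.492 ± 0.0194 in wild type lungs (SD, n = 4 each), a difference of -0.74 on the log2 scale. Cavin1 per Cav1 averaged 0.488 ± 0.0148 in knockout and 0.590 ± 0.0405 in wild type lungs, a difference of -0.27. Each ratio includes the difference of Cav1 itself, which was 0.25. The differences of the cavins alone were -0.49 for Cavin2 and -0.02 for Cavin1, which was not called (limma adjusted p = 0.825). For both ratios the genotypes did not overlap. The two-sided exact permutation test gave p = 0.0286 for each, the smallest that the 70 arrangements of the 8 libraries allow. For Cavin2 this outcome was fixed beforehand, because every knockout library was higher for Cav1 and lower for Cavin2. That p therefore adds nothing to the differences of the single genes. After Benjamini-Hochberg adjustment over the 4 ratios examined, this permutation p was 0.0571 for each. With only these ratios at the smallest p, the adjusted value could not fall under 0.05, so missing it decides nothing. Cav2 per Cav1 was nearly equal, at 0.468 ± 0.0209 in knockout and 0.474 ± 0.0139 in wild type lungs (difference -0.02, exact permutation p = 0.629, adjusted p = 0.629). Cavin3 per Cav1 averaged 0.0642 ± 0.00198 in knockout and 0.0723 ± 0.00841 in wild type lungs, with overlapping libraries (exact permutation p = 0.143, adjusted p = 0.190).

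**Figure D3:**
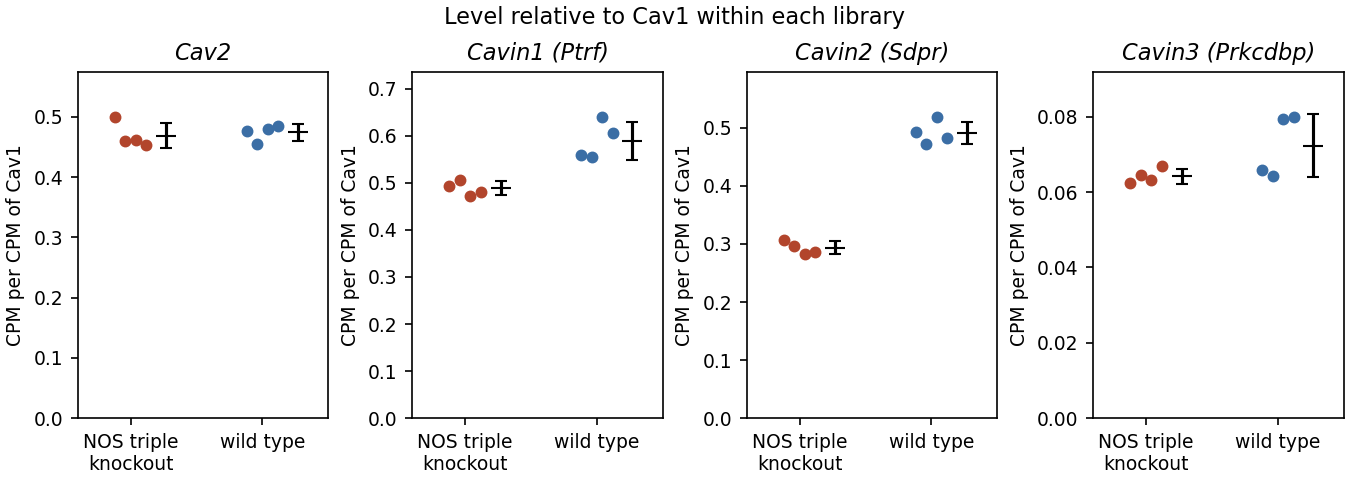
CPM of Cav2 and of the 3 cavins per CPM of Cav1 in each library, on linear axes from 0, with points for libraries and bars for the mean ± SD (n = 4 each). Cavin2 per Cav1 averages 0.293 in knockout and 0.492 in wild type lungs, and Cav2 per Cav1 averages 0.468 and 0.474 in the same order.

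In whole lung, more cells of a type and more RNA per cell cannot be told apart. The summed CPM of 10 endothelial markers ran from 2181 to 2412 in knockout and from 2133 to 2346 in wild type libraries, with 3 markers called higher (Emcn, Tie1 and Cdh5) and 0 lower. Over the 18 alternatives these counts ran from 2 to 4 higher and from 0 to 2 lower. Of all genes tested, 16.6% were called higher and 14.3% lower, the shares to set beside this and each later list count. The Cdh5 call (limma adjusted p = 0.0426) ended when any of knockout replicates 2 and 3 or of wild type replicates 1, 2 and 4 was left out, with adjusted p up to 0.113. None of the 10 was at 0 in all libraries. Egfl7 stood at 470 ± 27.5 CPM in knockout and 470 ± 23.1 CPM in wild type lungs, a value made uncertain by Gm20532, a listed gene near-identical to it. Cldn5, a claudin of endothelial junctions, stood at 456 ± 28.0 CPM in knockout and 516 ± 29.7 CPM in wild type lungs (limma adjusted p = 0.0554). It was called lower in 7 of the 18 alternatives, among them all 4 rescalings or count tests by TMM factors, median-ratio factors, edgeR and DESeq2 (adjusted p = 0.00948 to 0.0306). Per CPM of that sum, Cav1 ran from 0.340 to 0.389 in knockout and from 0.273 to 0.326 in wild type libraries. Cavin2 ran from 0.101 to 0.110 in knockout and from 0.142 to 0.158 in wild type libraries on the same scale. The differences for Cav1, Cav2 and Cavin2 against this sum, 0.23, 0.21 and -0.52 on the log2 scale, were close to those of their CPM. Cldn5 and Egfl7, neither called higher, were the largest parts of that sum. Emcn, a small part, averaged 51.6 ± 2.95 CPM in knockout and 29.9 ± 4.11 CPM in wild type lungs (limma adjusted p = 0.000178). By sign, 6 of the 10 markers were higher and 4 lower. Cdh5, Kdr and Tie1 had log2 fold changes of 0.26, 0.26 and 0.29, much like those of Cav1 and Cav2. Cldn5 and Tek were at -0.18 and -0.15. Kdr and Tek were not called in the main fit, but Kdr was called higher in 3 alternatives and Tek lower in 5. How the caveolins compare with endothelial markers thus depends on the markers taken. The part of endothelial cells in the caveolin and Cavin2 differences was not tested.

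The summed alveolar type 1 markers were higher in every knockout library, as the caveolins were, but only with Hopx included. By sign, 3 of the 8 markers were higher and 5 lower. Over the 18 alternatives, 2 to 3 were called higher and 2 to 3 lower. Their sum over 8 genes ran from 8001 to 8880 CPM in knockout and from 7166 to 7811 CPM in wild type libraries, with 2 called higher (Hopx and Rtkn2) and 2 lower (Pdpn and Emp2). Hopx, a homeodomain protein of these cells, made up most of it, with 5804 ± 236 CPM in knockout and 4555 ± 269 CPM in wild type lungs. Ager, the receptor for advanced glycation products that marks type 1 cells, stood at 1060 ± 34.0 CPM in knockout and 1121 ± 32.8 CPM in wild type lungs. Per CPM of the whole sum, Cav1 overlapped between genotypes, from 0.0908 to 0.101 in knockout and from 0.0883 to 0.101 in wild type libraries. Without Hopx, an alternative chosen after seeing the data, the sum ran from 2528 to 2878 CPM in knockout and from 2704 to 2976 CPM in wild type libraries. Cav1 per CPM of it ran from 0.280 to 0.326 in knockout and from 0.215 to 0.263 in wild type libraries. Cavin2 was lower in knockout against either sum, with differences of -0.69 and -0.42 on the log2 scale. The part of type 1 cells in the caveolin difference was not tested.

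Smooth muscle, fat and heart muscle cells also hold caveolae. Of 6 smooth muscle markers 0 were called higher and 1 lower (Tagln), with 1 to 3 lower over the 18 alternatives, and their sum ran from 271 to 401 CPM in knockout and from 348 to 374 CPM in wild type libraries. Of 6 adipocyte markers, 5 passed the filter, 1 was called lower (Plin1, limma adjusted p = 0.0438, up to 0.123 and lost in 8 of the 18 alternatives), and the sum was 23.9 to 33.6 CPM in knockout and 22.4 to 41.3 CPM in wild type libraries. Of 6 cardiac markers, 5 passed the filter and 1, Sln, was called lower (limma adjusted p = 0.0289). The Sln call was lost in 6 of the 18 alternatives (adjusted p up to 0.0804). Myl4, not called in the main fit, was called lower in 6 of the 18. Over these alternatives 0 to 2 cardiac markers were lower. The cardiac sums were 306 to 491 CPM in knockout and 334 to 511 CPM in wild type libraries.

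Among 15 listed genes for other caveola proteins, 2 were higher and 1 lower, where 30.9% of all genes tested were called. The median log2 fold change was -0.02, against 0.01 over all genes tested. Ehd3, an ATPase of the family that holds the caveolar neck, stood at 13.4, 15.4, 11.6 and 11.9 CPM in knockout and 6.22, 8.12, 7.85 and 8.33 CPM in wild type libraries. Each knockout library exceeded each wild type library, a log2 fold change of 0.74 (SE 0.121, limma adjusted p = 0.00122). Dnm3, a dynamin, was also higher, with 19.4, 21.4, 21.05 and 18.2 CPM in knockout and 16.0, 15.1, 16.1 and 14.55 CPM in wild type libraries (limma adjusted p = 0.00648). Flna, which ties caveolae to actin, was lower at 206 ± 17.5 CPM in knockout and 243 ± 21 CPM in wild type lungs (limma adjusted p = 0.0424, 0.00167 to 0.118 over all alternatives). The Flna call ended when knockout replicate 3 or 4, or any of wild type replicates 1, 2 and 3, was left out. Ehd2, the member of that family best known from caveolae and named here after its values were seen, stood at 77.6 ± 7.69 CPM in knockout and 66.8 ± 4.2 CPM in wild type lungs (limma adjusted p = 0.0654).

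Neither NOS-binding member passed the test. Nostrin, an F-BAR protein that draws endothelial NOS away from the plasma membrane, stood at 48.9, 52.2, 46.2 and 43.7 CPM in knockout libraries and 44.7, 54.5, 48.85 and 41.0 CPM in wild type libraries. The knockout range lay inside the wild type range (difference 0.02, 95% interval -0.18 to 0.22, limma adjusted p = 0.895). Nosip, a ubiquitin ligase that binds endothelial and neuronal NOS, stood at 16.4, 17.4, 18.6 and 18.4 CPM in knockout libraries and 18.5, 18.6, 16.5 and 18.9 CPM in wild type libraries. These ranges also overlapped (difference -0.03, 95% interval -0.21 to 0.14, limma adjusted p = 0.783). Prrg2, a listed gene on the opposite strand, overlaps Nosip, so its reads could be among those of Nosip. The intervals span 0.88 to 1.17 of the wild type level for Nostrin and 0.87 to 1.1 for Nosip.

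Of 19 other genes for NOS partners and for the enzymes of its lipid anchors, 2 were higher and 2 lower (median log2 fold change -0.06). Dynll1, the dynein light chain that binds neuronal NOS, averaged 839 ± 67.8 CPM in knockout and 691 ± 17.5 CPM in wild type lungs (limma adjusted p = 0.00913). Akt1, the kinase that activates endothelial NOS, was lower at 86.05, 75.1, 66.7 and 64.9 CPM in knockout and 89.2, 101, 93.1 and 98.15 CPM in wild type libraries. The genotypes did not overlap for Akt1 (limma adjusted p = 0.00781). Vdac1, a mitochondrial porin, averaged 90.1 ± 1.32 CPM in knockout and 106 ± 7.64 CPM in wild type lungs (limma adjusted p = 0.0186), and lost its call without wild type replicate 2 or 3 (adjusted p = 0.0604 and 0.0538). The genes of the chaperones Hsp90aa1 and Hsp90ab1 and of the acyl transferases Nmt1, Nmt2 and Zdhhc21 were not called.

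Adh5 stood at 63.0, 62.6, 62.7 and 67.0 CPM in knockout libraries and 58.4, 62.55, 64.7 and 72.4 CPM in wild type libraries. The knockout libraries lay within the wild type range (difference -0.01, 95% interval -0.17 to 0.15, limma adjusted p = 0.916). Of 10 related genes for S-nitrosothiol reduction and the formaldehyde route, 1 was higher and 2 lower (median log2 fold change -0.12). Txn1, the cytosolic thioredoxin, averaged 1142 ± 82.8 CPM in knockout and 926 ± 17.1 CPM in wild type lungs (limma adjusted p = 0.00430). Esd, the hydrolase that follows Adh5 in formaldehyde breakdown, stood at 63.7, 68.9, 71.4 and 58.9 CPM in knockout and 94.2, 91.8, 86.6 and 83.9 CPM in wild type libraries. Its log2 fold change was -0.44 (SE 0.0735, limma adjusted p = 0.00141), with near-identical copies in the annotation that make its value uncertain. Cbr1, a carbonyl reductase that also reduces S-nitrosoglutathione, averaged 44.0 ± 2.46 CPM in knockout and 53.0 ± 1.53 CPM in wild type lungs (limma adjusted p = 0.00925).

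Vasp stood at 117, 129, 120 and 115 CPM in knockout libraries and 111, 123, 119 and 105 CPM in wild type libraries. The ranges overlapped (difference 0.07, 95% interval -0.07 to 0.22, limma adjusted p = 0.442). Vasp is also abundant in platelets and leukocytes. Of 5 platelet markers 0 were called higher and 2 lower (Ppbp and Gp1bb), with sums of 56.2 to 77.8 CPM in knockout and 67.0 to 76.6 CPM in wild type libraries. Of 6 leukocyte markers 2 were higher (Ptprc and Csf1r) and 1 lower (Cd52), with sums of 222 to 341 CPM in knockout and 303 to 382 CPM in wild type libraries. Cd52 overlaps the listed gene Crybg2 on the opposite strand, so its value is uncertain. Cd79a, a B cell receptor subunit, was not called in the main fit (limma adjusted p = 0.103). It was called lower in 2 of the 18 alternatives. These were the replicate block (log2 fold change -0.71, limma adjusted p = 0.0457) and leaving out knockout replicate 1 (-1.04, limma adjusted p = 0.00372). With 1 library left out its log2 fold change ran from -1.04 to -0.42. The part of these cells in the level of Vasp was not tested.

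Of 14 relatives, kinases and ligands of Vasp, 1 was higher and 2 lower (median log2 fold change -0.04). Enah, the Vasp paralogue Mena, stood at 9.74, 10.8, 9.32 and 8.45 CPM in knockout and 15.4, 15.4, 15.0 and 17.05 CPM in wild type libraries. All knockout libraries were lower (log2 fold change -0.69, SE 0.0932, limma adjusted p = 0.000397). Tes, a LIM protein of focal adhesions that binds Mena, averaged 43.9 ± 1.08 CPM in knockout and 32.9 ± 0.924 CPM in wild type lungs (limma adjusted p = 0.000618), and the listed antisense gene Gm4876 overlaps it. Pfn2, a profilin, averaged 16.6 ± 1.07 CPM in knockout and 20.6 ± 2.40 CPM in wild type lungs (limma adjusted p = 0.0353), and its call ended when any of knockout replicates 1, 3 and 4 or of wild type replicates 3 and 4 was left out, and with replicate number as a block (adjusted p = 0.0575). Prkg1, a kinase that phosphorylates Vasp, was not called, and neither were the other listed kinase genes Prkg2, Prkaca and Prkacb.

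**Figure D4:**
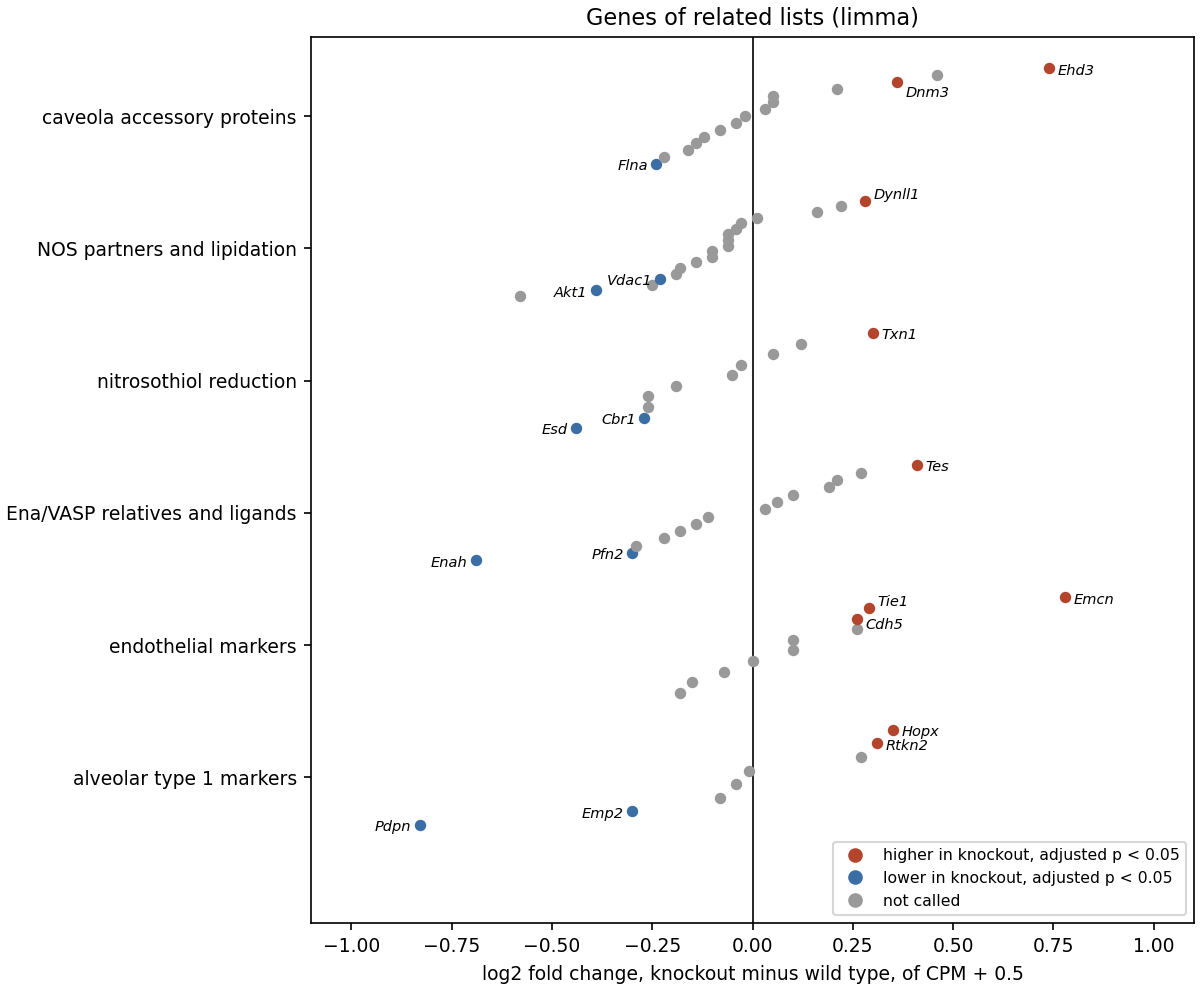
Log2 fold change, knockout minus wild type, of CPM + 0.5 for the tested genes reported here of 4 related lists and of the endothelial and alveolar type 1 markers. Each point is a gene, called genes are named, and each list holds points on either side of 0.

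Tes, Cav2 and Cav1 lie near each other on chromosome 6, so the listed neighbours of the called genes were read as well, a choice made after values were seen. In the order of the GENCODE M21 annotation, Tes, the noncoding gene D830026I12Rik, Cav2 and Cav1 were all higher in knockout lungs. D830026I12Rik was rare, at 2.58, 2.37, 2.21 and 1.46 CPM in knockout and 1.14, 0.86, 1.1 and 0.58 CPM in wild type libraries (limma adjusted p = 0.00576). The next gene on the far side of Cav1, the growth factor receptor gene Met, went the other way, with 19.9, 20.8, 16.0 and 17.4 CPM in knockout and 27.4, 25.8, 27.1 and 28.4 CPM in wild type libraries (log2 fold change -0.55, limma adjusted p = 0.00132). Capza2, which follows Met, had a log2 fold change near 0 (95% interval -0.12 to 0.12). The unlisted antisense transcript Gm15581 overlaps D830026I12Rik, Cav2 and Cav1, and its reads could be shared among them. Around Cavin2 on chromosome 1, Tmeff2 on one side was not called (limma adjusted p = 0.111), and Obfc2a on the other was higher, by 0.52 on the log2 scale (limma adjusted p = 0.000790).

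The genes whose log2(CPM + 0.5) followed a called member most closely over the 8 libraries were listed among 11342 others with a mean of at least 5 CPM. For Cav1 they were Rbm41, Pigf and Mocos (Pearson r = 0.974, 0.964 and 0.963). For Cav2 they included Mansc1 and Tnfaip2 (r = 0.974 and 0.971), and for Cavin2 they were 2010012P19Rik, Tmem109 and Tmem57 (r = 0.993, 0.991 and 0.991). A close r does not mean a like fold change: 2010012P19Rik averaged 1.79 CPM in knockout and 14.4 CPM in wild type lungs. Its log2 fold change was -2.73, against -0.49 for Cavin2. Pigf and 2010012P19Rik overlap listed genes on the opposite strand, so their values are uncertain. Rbm41, Mocos, Mansc1 and Tnfaip2 each overlap an unlisted gene on the opposite strand, with the same uncertainty. The r values are a description, over libraries that share their genotype and their depth order, so part of each r is the genotype difference itself. For deviations from the genotype means, r was 0.92, 0.87 and 0.88 for the Cav1 genes, in the order given. In the same way it was 0.96 and 0.93 for the Cav2 genes, and 0.88, 0.88 and 0.89 for the Cavin2 genes. All these genes were picked by r over the same 8 libraries, so a high r of the deviations partly follows from that choice.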

How the data were processed

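CAGE libraries of lung RNA were made from 4 NOS triple knockout and 4 wild type mice and sequenced as 1 pool of 8, per the labels. The values are CPM with 2 decimals as deposited by the authors, and each column adds up to 1000000 within rounding. Per the submitters' processing notes, tools included HISAT2 2.0.5, BWA 0.7.12-r1039 and edgeR, and the build was mm9; no role or order is stated. The annotation and whether strand was used are not stated. CPM steps gave back whole reads (100% of values within 0.1 reads), with totals of 13014134 to 18593913 reads.

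Groups and replicate numbers came from the titles. The 14065 genes reaching 1 CPM in 4 or more libraries were tested with limma 3.58.1 in R 4.3.3 on log2(CPM + 0.5), genotype only, with a trend on mean level. The step was tested on simulated data. Within a genotype, no pair of libraries was a duplicate (chi-square over genes, 10.89 to 18.21 for each gene on average). Alternatives were other pseudocounts, filters and scalings, edgeR 4.0.16 and DESeq2 1.42.0 on the recovered reads, a replicate block, and leaving out each library. The members, lists and tests were chosen with earlier results of these data known. Genes named were the members, Nos3, up to 4 called genes of each related list, abundant markers, and the 3 genes most like Cav1 and each called member. Other markers, Ehd2, uncalled list genes and the neighbours were named after their values were seen. A few genes that the rule names are not reported here. Overlaps and names come from GENCODE M21 (GRCm38). Copies were sought with blastn 2.17.0 (97% identity over 75 nt, first 200 nt).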

Additional observations from a re-analysis of the deposited data

Results flagged for a closer look

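Within a genotype, 1 library stood far from the other 3 for 3 genes, out of 92 groups of 4 libraries examined over 46 named genes; chance alone flags about 5% of such groups. Cavin2 (Sdpr) was at 220 CPM in knockout replicate 4, against 243 to 247 CPM in the other knockout libraries, and without that library its log2 fold change was -0.45 (limma adjusted p = 0.000530). Adh5 was at 67.0 CPM in knockout replicate 4, against 62.6 to 63.0 CPM in the others. Nosip was at 16.5 CPM in wild type replicate 3, against 18.5 to 18.9 CPM in the others.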

How the results depend on the processing

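Genes called higher and lower numbered 2341 and 2010, and 1693 to 2344 and 1495 to 2092 with 1 library left out. Cavin2 (Sdpr) kept its direction and its call under every alternative tried, from -0.56 to -0.45 on the log2 scale. Quantile normalization ended the calls of Cav1 (0.18) and Cav2 (0.14), leaving 0 members called higher. Under it the caveola list had 2 lower, the NOS partner list 1 higher and 4 lower, and the nitrosothiol list 4 lower, and Cidec turned to 0.01. With DESeq2 on whole reads the NOS partner list had 4 lower. The cause was not tested. Nostrin, not called, turned to -0.0056 with DESeq2, -0.0058 with edgeR, -0.0028 with TMM factors, -8.1e-05 with median-ratio factors and -0.0062 with quantile normalization.

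With 1 library left out, members called higher numbered 1 to 2. The caveola list ran from 2 to 4 higher and 0 to 1 lower, NOS partners from 1 to 3 lower, the nitrosothiol list from 2 to 5 lower, and Vasp relatives from 1 to 2 in either direction. Cav2 ran from 0.21 to 0.28, Cavin1 (Ptrf) from -0.04 to 0.02, Nosip from -0.08 to 0.0014, Nostrin from -0.05 to 0.09 and Adh5 from -0.06 to 0.04. Of 45 markers tested, 9 changed sign, among them the named markers Egfl7 (-0.03 to 0.03), Des (-0.07 to 0.06), Cidec (-0.17 to 0.07) and Fabp4 (-0.05 to 0.27).

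Same-numbered libraries deviated from their genotype means with r = 0.043, 0.026, -0.003 and 0.065, so the numbers were not taken as pairs. With replicate number as a block, 2384 genes were called higher and 2014 lower, and 2 and 1 members, as without it. Low counts limit D830026I12Rik (9 to 39 reads per library).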
